A study of Mus musculus with 9 samples.

Results

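Cathepsins A, B, C, D, H, K, L, S and Z (Ctsa, Ctsb, Ctsc, Ctsd, Ctsh, Ctsk, Ctsl, Ctss and Ctsz) and legumain (Lgmn) are peptidases of the lysosome. They were chosen by gene symbol, and all 10 were found among the 24012 genes of the deposited table. Their RNA was measured in mouse pancreatic ductal adenocarcinoma (PDAC) cells that carried GFP and a Gstt1-mCherry reporter and were sorted from the lungs of mice injected through the tail vein. The groups mCherryLow and mCherryHigh were sorted on GFP and on low or high mCherry at 6 weeks, and the group labelled DTC was sorted on GFP at 5 days. Each group had 3 libraries. The genotype on every label, and so in every group, was SIRT6F/F/p48-Cre/p53F/+KrasL/+, in which the p48 promoter drives Cre in the pancreas. No group without these alleles was analysed here.

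Lysosomal peptidases are made as inactive precursors, carried to the lysosome and activated by its acid, which the proton pump V-ATPase supplies. Ctsd is an aspartic peptidase and Ctsa a serine carboxypeptidase, while the other cathepsins described here are cysteine peptidases of the papain family and legumain cuts after asparagine. Most of them are made in nearly every cell type. Ctss is best known from macrophages, dendritic cells and B cells, where it cuts the invariant chain from MHC class II molecules, and Ctsk from osteoclasts, where it cuts collagen.

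Promoter sequences are shown for 3 of the genes because they differ in the motifs they carry. They are RefSeq sequences in build GRCm38.p6, a later build than the mm9 used for the deposited values. RefSeq windows from 250 bases before to 50 after a start site were found for 8 of the 10 genes, with Ctsb and Ctsh missing. In the Ctss stretch (chr3:95526666-95526800, plus strand, base -120 to base 15 from the start site), capitals mark 2 copies of GAAA with 2 bases between them, a paired motif of interferon regulatory factors, and then a match to GAGGAAGT, a core of the myeloid and B cell factor PU.1, on the other strand.
Ctss: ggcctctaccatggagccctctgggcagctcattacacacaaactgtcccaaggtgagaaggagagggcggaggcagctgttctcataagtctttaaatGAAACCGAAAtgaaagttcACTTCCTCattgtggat
In the Ctsd stretch (chr7:142387828-142388077, minus strand, the 250 bases before the start site), capitals mark an E-box, CACGTG, and then TCACGTGA, the core of the CLEAR element bound by TFEB, a regulator of lysosomal genes.
Ctsd: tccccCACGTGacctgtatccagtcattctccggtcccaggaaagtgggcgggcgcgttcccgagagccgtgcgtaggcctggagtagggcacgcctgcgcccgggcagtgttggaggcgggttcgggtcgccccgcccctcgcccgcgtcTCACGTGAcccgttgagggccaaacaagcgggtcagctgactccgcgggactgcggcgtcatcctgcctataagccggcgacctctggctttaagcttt
In the Ctsa stretch (chr2:164833685-164833784, plus strand, base -88 to base 12), capitals mark 2 matches to the same core.
Ctsa: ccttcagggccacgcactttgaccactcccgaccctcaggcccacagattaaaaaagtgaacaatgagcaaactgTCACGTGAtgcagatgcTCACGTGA

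The motifs were chosen after the sequences had been seen and were searched on both strands. TCACGTGA, which contains CACGTG, was in 0.974% of all 32851 windows of 300 bases and, among the 8 genes, in Ctsa and Ctsd. CACGTG was in 7.15% of windows and in Ctsa, Ctsd, Ctsl and Lgmn. GAGGAAGT was in 3.20% of windows, in Ctss from base -2 to base 6 and in Ctsc from base -151 to base -144. The paired GAAA motif was in 3.44% of windows and, among the 8 genes, in Ctss alone, from base -21 to base -12. These matches describe letters and not binding, and no binding was measured.

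Library totals recovered from the deposited values ran from 643748 reads (mCherryHigh 1) to 11861241 reads (mCherryLow 6), with 923988 to 2052623 reads in DTC. Values are CPM, reads of a gene scaled to a common library total. The libraries of a group are not stated to come from separate mice, so p-values measure a spread that may be technical. Code series in the label descriptions put mCherryLow 1 with mCherryHigh 1, mCherryLow 5 and 6 with mCherryHigh 5, mCherryHigh 6 alone, and DTC 1, 2 and 3 in another. That last series, the time and the gate cannot be told apart from DTC itself. Between the first of these series and the libraries numbered 5 and 6, 7 genes had 0 reads in all 4 of the latter and at least 50 CPM in both of the former, among them the myeloid gene Tyrobp, and 2 genes had the reverse. None of them was a cathepsin or Lgmn. Sirt6 RNA was at 3.41 to 24.9 CPM in the 9 libraries, which does not check the deletion because reads outside the floxed exons are counted too. DTC 3 stood apart from DTC 1 and DTC 2. Krt18, a keratin of the labelled epithelial tumour cells, was at 169 CPM in DTC 3, 3014 CPM in DTC 1 and 3046 CPM in DTC 2, and at 379 to 2482 CPM in the sorted mCherry libraries. Other epithelial genes went both ways in DTC 3. Krt8 and Krt19 were at 0.0465 and 0.0944 times the mean of DTC 1 and DTC 2. Elf3 was at 0 CPM in DTC 3 and at 12.9 and 25.8 CPM in DTC 1 and DTC 2. Esrp1 and Krt7 were higher in DTC 3, at 58.4 and 23.8 CPM. They were at 12.9 and 17.5 CPM in DTC 1 and at 6.82 and 10.7 CPM in DTC 2. Grhl2, an epithelial transcription factor, was at 71.4 CPM in DTC 3 and 10.7 and 12.7 CPM in DTC 1 and DTC 2, and Epcam, at 16.2 CPM, lay between their 21.3 and 4.38 CPM. Lyz2, the lysozyme of macrophages and other myeloid cells, was at 3966 CPM in DTC 3, 1929 CPM in DTC 1 and 1468 CPM in DTC 2, against 52.8 to 286 CPM in the mCherry libraries.

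In both mCherry groups, the cathepsins other than Ctss and Ctsk and Lgmn were plainly expressed, while Ctss and Ctsk were low. Per kilobase of transcript, which allows levels of different genes to be compared in full-length cDNA, the order in mCherryLow was Ctsd (1506 CPM per kb), Ctsz (728), Ctsl (568), Ctsb (412), Ctsc (202), Ctsa (170), Ctsh (144), Lgmn (85.4), Ctss (14.8) and Ctsk (7.33). Neighbours in this order whose library ranges overlapped were Ctsl with Ctsb, Ctsc with Ctsa, Ctsa with Ctsh, and Ctss with Ctsk. In mCherryHigh, Ctsl (709 CPM per kb) and Ctsz (704) exchanged places with overlapping ranges and the rest of the order was as in mCherryLow. In DTC the order was Ctsd (651 CPM per kb), Ctss (596), Ctsz (351), Ctsl (151), Ctsb (138), Ctsc (103), Ctsk (86.7), Ctsh (67.0), Lgmn (62.0) and Ctsa (59.6), and Ctsz and Ctsl were the only neighbours without overlap. Ctss therefore stood 9th in both mCherry groups and 2nd in DTC. Lengths were those of the principal transcript. With all exons merged, Ctsl moved to 4th in the mCherry groups and 8th in DTC, and Ctss was 1st in DTC.

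**Figure D1:**
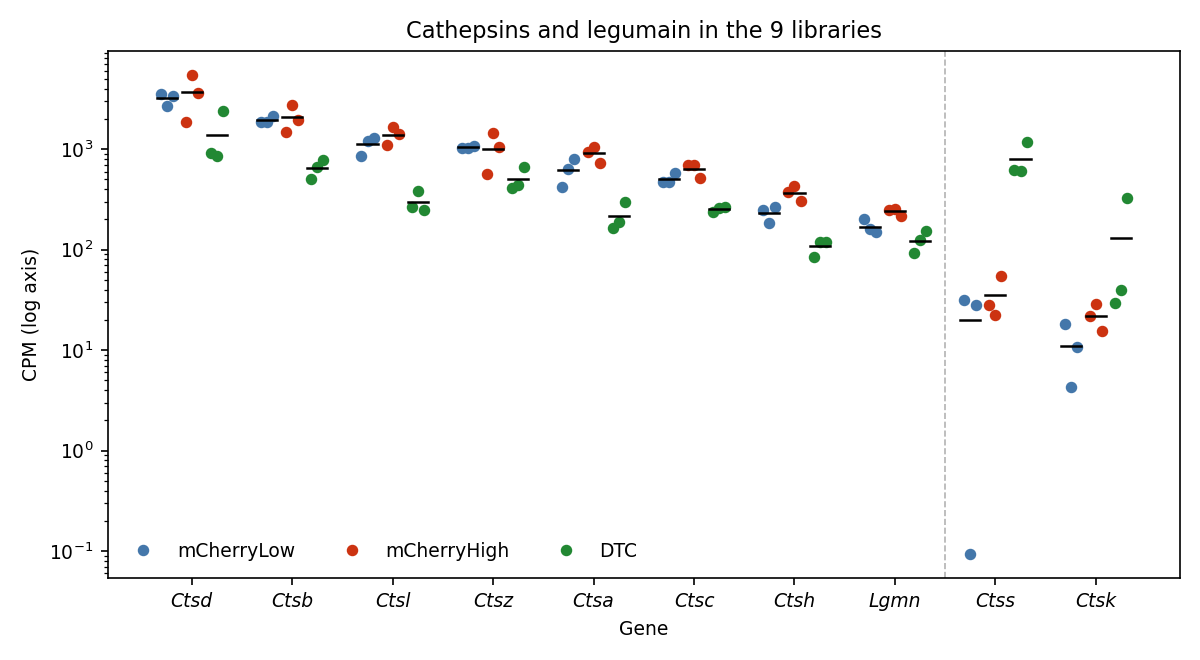
CPM (log axis) of the 10 genes in each of the 9 libraries, with points for libraries coloured by group and black bars for group means. Left of the dashed line are 8 genes whose DTC points lie low, and right of it Ctss and Ctsk, whose DTC points lie above every mCherry library.

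Ctss separated DTC from the mCherry cells by far more than the other genes did. It was at 31.7, 0.0939 and 28.4 CPM in mCherryLow 1, 5 and 6 and at 28.0, 22.6 and 55.1 CPM in mCherryHigh 1, 5 and 6. It was at 616, 612 and 1193 CPM in DTC 1, 2 and 3. Every DTC library lay above every mCherry library, the closest being DTC 2 (95% exact Poisson interval 579 to 647 CPM) and mCherryHigh 6 (50.6 to 60.0 CPM). The mCherryLow 5 value was 1 read, with an interval of 0.00238 to 0.523 CPM, in a library of 10649995 reads. These intervals cover counting error only. Between means, Ctss was at 807 ± 334 CPM (SD, n = 3) in DTC and at 20.1 ± 17.4 CPM (SD, n = 3) in mCherryLow, a ratio of 40.2. On the log2(CPM + 1) scale it rose by 6.24 (SE 1.01, limma adjusted p = 0.000892). Without mCherryLow 5 the rise was 4.63 (limma adjusted p = 0.000286), and without DTC 3 it was 5.92 (limma adjusted p = 0.00671). Against the mCherryHigh mean of 35.2 ± 17.5 CPM (SD, n = 3), Ctss rose by 4.51 (SE 0.43, limma adjusted p = 0.000572), a 22.8-fold difference on the same scale. Both comparisons use the same DTC libraries.

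As a share of the summed level of the 10 genes per kilobase, Ctss made up 27.3, 24.97 and 26.5% in DTC 1, 2 and 3. Its share was between 0.00196 and 0.612% in mCherryLow and between 0.277 and 0.941% in mCherryHigh. Per kilobase there was 4.23, 3.24 and 5.30 times as much Ctss as Ctsb RNA in DTC 1, 2 and 3. In the mCherry libraries this ratio was at most 0.0989. The ratio was above 1 in every DTC library and below 1 in every mCherry library.

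Markers of immune cells were also higher in DTC. The list of 21 macrophage and monocyte genes summed to between 2757 and 6892 CPM in DTC, between 601 and 2824 CPM in mCherryLow and between 847 and 1718 CPM in mCherryHigh. Without Tyrobp, which differed between the code series, the sums were between 2683 and 6701 CPM in DTC, between 601 and 951 CPM in mCherryLow and between 562 and 958 CPM in mCherryHigh. Of the 21 genes, 16 rose and 0 fell against mCherryLow, where 34.2% of all genes tested rose, and 15 rose and 0 fell against mCherryHigh, where 23% of all genes rose. C1qb and C1qc, complement genes of tissue macrophages, were at 0 in every mCherryHigh library and in mCherryLow 5 and 6. In mCherryLow 1 they were at 25.8 and 29.3 CPM. In DTC they were at 78.8 ± 18.9 and 54.3 ± 18.3 CPM (SD, n = 3). Cd68, a lysosomal protein of macrophages, was at 160 ± 62.0 CPM (SD, n = 3) in DTC against 175 ± 50.2 CPM (SD, n = 3) in mCherryLow, a difference of -0.15 (limma adjusted p = 0.783). Against mCherryLow, 8 of 10 alveolar macrophage genes, 6 of 8 tested neutrophil genes, 6 of 7 dendritic and B cell genes, 7 of 7 T and NK cell genes, 9 of 10 endothelial genes and 7 of 9 alveolar and airway genes rose too, and none of these fell. Of 9 fibroblast and pericyte genes 2 rose, and of 13 genes of pancreatic tumour epithelium 4 rose and 1 fell, shares of rises no higher than that of all genes. In bulk RNA, a different share of cells of one type and a different amount of RNA per cell cannot be told apart, and the part of these cell types in the Ctss values was not tested.

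**Figure D2:**
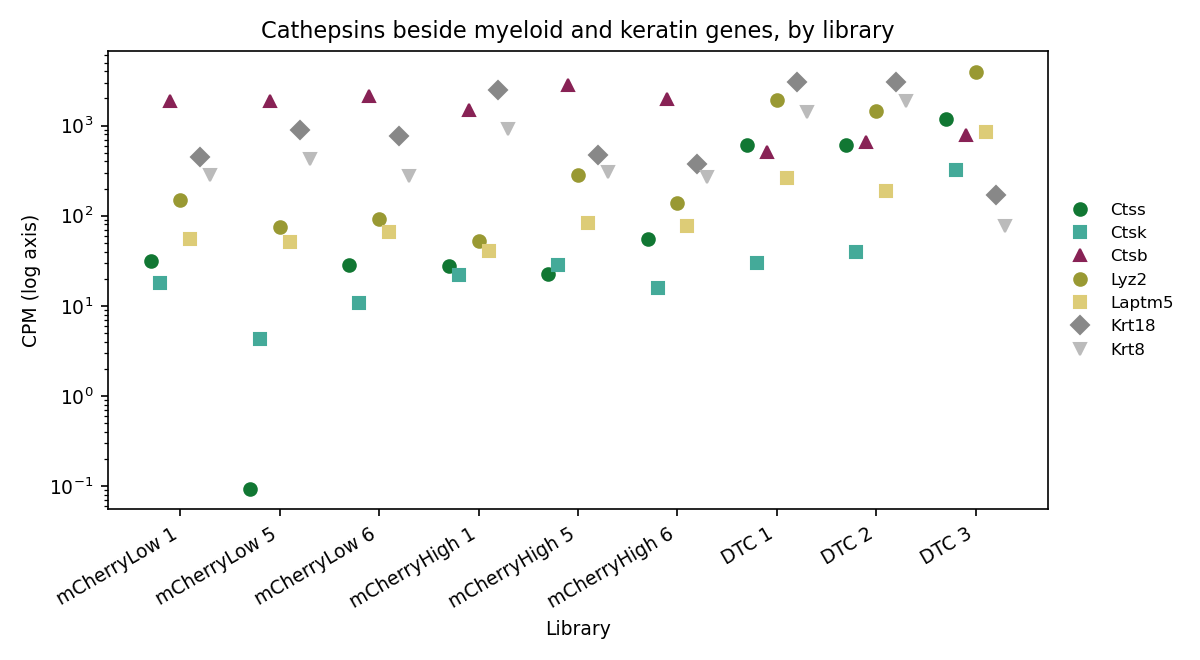
CPM (log axis) of Ctss, Ctsk and Ctsb beside the myeloid genes Lyz2 and Laptm5 and the keratins Krt8 and Krt18, with a point for each of the 9 libraries. Ctss, Lyz2 and Laptm5 are higher in all DTC libraries, Ctsk is highest in DTC 3, where the keratins are lowest, and the lowest point is the 1 read of Ctss in mCherryLow 5.

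In mCherryLow 5, with its single Ctss read, Lyz2 was at 74.9 CPM and Laptm5, a lysosomal protein of blood cells, at 50.6 CPM. In mCherryLow 6, with 337 Ctss reads, they were at 91.8 and 66.1 CPM. Other myeloid genes differed between these libraries in both directions. Ptprc was at 17.7 and 8.18 CPM in mCherryLow 5 and 6, Mrc1 at 225 and 135 CPM, and Csf1r at 7.89 and 8.94 CPM. Cd68 was at 117 and 211 CPM in mCherryLow 5 and 6, Cd74, the invariant chain, at 76.4 and 218 CPM, and Siglec5 at 0.0939 and 3.54 CPM. The genes whose log2(CPM + 1) values followed Ctss most closely over the 9 libraries, of 10576 genes compared, were Ncf1 (Pearson r 0.986), Fam105a (0.981), Csf2rb (0.978), Cyba (0.977) and Unc93b1 (0.977). Ncf1 and Cyba are subunits of the phagocyte NADPH oxidase. Ncf1 reached 237 CPM in DTC and at most 13.6 CPM in the mCherry libraries, and both Ncf1 and Csf2rb were, like Ctss, at 1 read (0.0939 CPM) in mCherryLow 5. All 9 points share the contrast between DTC and the rest, so r describes that contrast and carries no p.

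Ctsk, the collagen-cutting cathepsin, lies next to Ctss in the genome and was also highest in DTC, but unevenly. It was at 18.0, 4.32 and 10.9 CPM in mCherryLow 1, 5 and 6, at 21.7, 28.7 and 15.6 CPM in mCherryHigh 1, 5 and 6, and at 29.7, 39.9 and 324 CPM in DTC 1, 2 and 3. DTC 3 held 9.29 times the mean of DTC 1 and DTC 2, and DTC 1 (39 reads, interval 21.1 to 40.6 CPM) was barely above mCherryHigh 5 (281 reads, interval 25.4 to 32.2 CPM). Against mCherryLow Ctsk rose by 2.80 (SE 0.81, limma adjusted p = 0.0158). Without DTC 3 the difference was 1.74 and the limma adjusted p was 0.0649. Against mCherryHigh the difference was 1.73 (SE 0.76, limma adjusted p = 0.107), and without DTC 3 it was 0.66. The size of the Ctsk difference thus rested on DTC 3. In that library Lyz2 and Laptm5 were 2.34 and 3.75 times, and Krt18 0.0557 times, the mean of DTC 1 and DTC 2. Their part in the Ctsk value was not tested.

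In the order of genes along the chromosome Ctss lies between Ctsk and Hormad1, with Arnt beyond Ctsk and Golph3l beyond Hormad1. Arnt, the partner of the hypoxia factor and the dioxin receptor, was at 62.1 ± 7.30 CPM (SD, n = 3) in DTC against 88.0 ± 60.7 CPM (SD, n = 3) in mCherryLow (difference -0.30, limma adjusted p = 0.628). Golph3l, a Golgi protein, was at 34.5 ± 4.38 CPM (SD, n = 3) in DTC against 38.4 ± 16.4 CPM (SD, n = 3) in mCherryLow (difference -0.06, limma adjusted p = 0.933). Hormad1, a meiotic protein, was low in both groups, at 4.59 ± 2.36 CPM (SD, n = 3) in DTC against 0.597 ± 0.576 CPM (SD, n = 3) in mCherryLow, and rose by 1.76 (limma adjusted p = 0.0232). Against mCherryLow, 2 of the 4 neighbours thus passed the test, Ctsk and Hormad1, where 43.1% of all genes did. Against mCherryHigh 1 of the 4 passed, where 30.2% of all genes did. That was Arnt, which fell by 1.29 (limma adjusted p = 0.0188), while Ctsk, Hormad1 and Golph3l had limma adjusted p of 0.107, 0.110 and 0.820.

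The remaining 8 genes were lower in DTC on average. Against mCherryLow, 9 of the 10 genes passed the threshold of 0.05 on the limma adjusted p, of which 2 were higher and 7 lower. Of all 18701 genes tested, 43.1% passed, 34.2% higher and 8.87% lower. With edgeR on recovered reads, which scales libraries differently, 24.4% of all genes were higher and 16.6% lower. The groups did not overlap for 2 of the 10 genes in the higher direction and 7 in the lower direction, against 39% and 14.2% of all genes. The median difference was -1.09 over the 10 genes and 0.59 over all genes tested. Under median-of-ratios scaling the latter median was 0.29, and under quantile normalization it was -0.14. Quantile normalization left 4 of the 9 calls, those of Ctss, Ctsl, Ctsb and Ctsd, and edgeR added Lgmn (difference -0.99, adjusted p = 0.0413). Among the 2676 genes at 100 CPM or more in mCherryLow, which is one of the values compared, 37.4% fell and the median difference was -0.89. The 8 genes at that level had a median difference of -1.24, 7 of them lay below the median of those genes, and 4 lay below their lower quartile of -1.34.

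**Figure D3:**
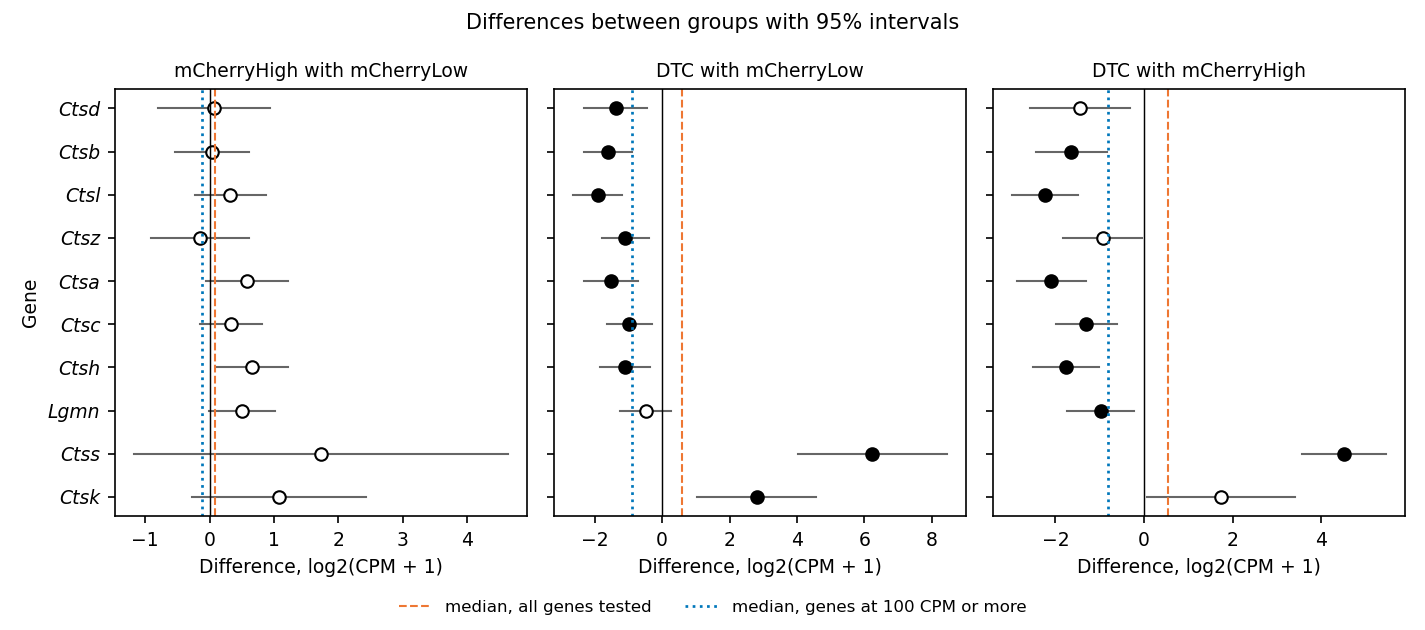
Differences in log2(CPM + 1) of the 10 genes in the 3 comparisons, with 95% intervals from limma. Filled points passed a limma adjusted p of 0.05, the dashed line is the median of all genes tested and the dotted line the median of genes at 100 CPM or more in the mCherry group of the comparison (mCherryLow in the first panel). In both DTC panels Ctss lies far to the right and 8 genes lie left of 0.

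Ctsl, an endopeptidase of broad specificity, had the largest of these falls. It was at 854, 1198 and 1307 CPM in mCherryLow 1, 5 and 6, at 1112, 1653 and 1430.1 CPM in mCherryHigh 1, 5 and 6, and at 266, 381 and 246 CPM in DTC 1, 2 and 3. Every DTC library lay below every mCherry library, the closest being DTC 2 and mCherryLow 1. Ctsl fell by 1.91 on the log2(CPM + 1) scale against mCherryLow (SE 0.34, limma adjusted p = 0.00127) and by 2.24 against mCherryHigh (SE 0.34, limma adjusted p = 0.00206). In DTC 3, where Ctss, Ctsk and Ctsd were highest, Ctsl was at 0.758 times the mean of DTC 1 and DTC 2.

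Ctsb cuts within proteins and also removes dipeptides from their carboxyl end. It was at 1853, 1885 and 2125 CPM in mCherryLow, at 1482, 2782 and 1951 CPM in mCherryHigh and at 509, 662 and 788 CPM in DTC. The DTC libraries were all below the mCherry libraries. It fell by 1.60 against mCherryLow (SE 0.32, limma adjusted p = 0.00245) and by 1.64 against mCherryHigh (SE 0.36, limma adjusted p = 0.00821). Without DTC 1 the second value was -1.47 with a limma adjusted p of 0.0680. The genes that followed Ctsb most closely over the 9 libraries were Tex264 (r 0.988), Fam3c (0.986), Pcyox1 (0.986), Lpcat3 (0.985) and the lysosomal membrane protein Lamp1 (0.985).

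Ctsd, the main aspartic peptidase of lysosomes, had the highest mean of the 10 genes per kilobase of principal transcript in all groups, with overlap with Ctss in DTC. It was at 3584, 2672 and 3356 CPM in mCherryLow, at 1863, 5514 and 3635 CPM in mCherryHigh and at 910.3, 848 and 2398 CPM in DTC. DTC 3 reached 2.73 times the mean of the other DTC libraries and lay above mCherryHigh 1, but below every mCherryLow library. Against mCherryLow Ctsd fell by 1.37 (SE 0.43, limma adjusted p = 0.0216). This call was lost without mCherryLow 1, mCherryLow 6, DTC 1 or DTC 2, with limma adjusted p of 0.0948, 0.0865, 0.158 and 0.0561, and with a filter of 5 CPM (0.0553). Against mCherryHigh the difference was -1.44 (SE 0.51, limma adjusted p = 0.0522), and it passed without mCherryHigh 1 (-1.87, limma adjusted p = 0.0252) or without DTC 3 (-1.93, limma adjusted p = 0.0218). Of 50-base windows of the Ctsd transcript, 63.4% were unique among transcripts annotated in a later build. The rest were shared with the gene model Gm49369. Ctsd reads may be divided between the 2 only if Gm49369 was also counted for the deposited values, which was not checked. Ctsd exons overlapped another gene over 34.4% of their bases, as did 26.8% for Ctsl, 17.4% for Ctsa and 12.8% for Ctsb. Whether reads were counted by strand is not given in the sources used here.

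Ctsz removes single residues from the carboxyl end of proteins. It was at 1036, 1032 and 1077 CPM in mCherryLow, the tightest of the 10 genes in any group, at 565, 1439 and 1040.2 CPM in mCherryHigh and at 407, 442 and 668 CPM in DTC. DTC overlapped mCherryHigh and not mCherryLow. It fell by 1.08 against mCherryLow (SE 0.32, limma adjusted p = 0.0184), a call lost without mCherryLow 1, mCherryLow 5, mCherryLow 6 or DTC 1 (limma adjusted p of 0.0740, 0.0548, 0.0784 and 0.128). Against mCherryHigh the difference was -0.94 (SE 0.41, limma adjusted p = 0.102), and without mCherryHigh 1, the shallowest library, it was -1.31 (limma adjusted p = 0.0354).

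Ctsa is the carboxypeptidase that also holds beta-galactosidase and neuraminidase in a stable complex. It was at 422, 643 and 793 CPM in mCherryLow, at 938, 1049 and 733 CPM in mCherryHigh and at 164, 188 and 299.8 CPM in DTC. All DTC libraries were below all mCherry libraries. It fell by 1.51 against mCherryLow (SE 0.37, limma adjusted p = 0.00676) and by 2.09 against mCherryHigh (SE 0.35, limma adjusted p = 0.00284). Without DTC 1 the first value was -1.33 with a limma adjusted p of 0.0542.

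Ctsc, which removes dipeptides from the amino end and activates the serine peptidases of immune granules, was at 467, 472 and 574 CPM in mCherryLow, at 696, 697 and 521 CPM in mCherryHigh and at 239, 259.7 and 268 CPM in DTC. Ctsh, an aminopeptidase that takes part in the processing of surfactant proteins in lung, was at 249.1, 183 and 269 CPM in mCherryLow, at 373, 430.1 and 304 CPM in mCherryHigh and at 84.5, 120.3 and 120.1 CPM in DTC. For both genes the DTC libraries lay below all mCherry libraries. Ctsc fell by 0.97 against mCherryLow (SE 0.31, limma adjusted p = 0.0229) and by 1.305 against mCherryHigh (SE 0.31, limma adjusted p = 0.0115). Ctsh fell by 1.10 against mCherryLow (SE 0.34, limma adjusted p = 0.0218) and by 1.76 against mCherryHigh (SE 0.34, limma adjusted p = 0.00446). Against mCherryLow, the Ctsc call was lost without mCherryLow 1, 5 or 6 or DTC 1 (limma adjusted p of 0.0695, 0.0520, 0.106 and 0.109). The Ctsh call was lost without mCherryLow 1 or 6 or DTC 1 (limma adjusted p of 0.0768, 0.0849 and 0.113). Against mCherryHigh, the Ctsc call was lost without mCherryHigh 5 or DTC 1 (limma adjusted p of 0.0520 and 0.0661) and the Ctsh call in no case.

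Lgmn, the asparaginyl endopeptidase that also trims other cathepsins, differed least from mCherryLow. It was at 201, 160.0 and 149 CPM in mCherryLow, at 250.1, 257 and 214 CPM in mCherryHigh and at 92.1, 125 and 153 CPM in DTC. DTC 3 lay above mCherryLow 6, so those groups overlapped, while all DTC libraries lay below mCherryHigh. The difference was -0.48 against mCherryLow (SE 0.35, limma adjusted p = 0.285), with an interval of -1.23 to 0.28. Against mCherryHigh Lgmn fell by 0.98 (SE 0.34, limma adjusted p = 0.0490). That value was at the threshold, and leaving out any of mCherryHigh 1, mCherryHigh 5, mCherryHigh 6, DTC 1 or DTC 2 gave a limma adjusted p of 0.0875, 0.141, 0.0940, 0.197 and 0.0707, as no filter gave 0.0615 and a total without Gm10800, Gm10801 and Lars2 gave 0.0811.

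Against mCherryHigh, 7 of the 10 genes passed, 1 higher and 6 lower. Of all 19700 genes tested, 30.2% passed, 23% higher and 7.19% lower. With edgeR on recovered reads, 15.9% were higher and 10.8% lower. The groups did not overlap for 2 of the 10 genes in the higher and 6 in the lower direction, against 31.4% and 13.2% of all genes. Quantile normalization left 4 of the 7 calls, those of Ctss, Ctsl, Ctsa and Ctsh. edgeR added Ctsd (difference -1.85, adjusted p = 0.0401) and Ctsz (-1.44, adjusted p = 0.0441), and DESeq2 added Ctsk as well (2.41, adjusted p = 0.0130). Among the 2752 genes at 100 CPM or more in mCherryHigh, 30.5% fell with a median difference of -0.82. The 8 genes at that level had a median of -1.54, all 8 lay below that median and 5 lay below the lower quartile of -1.34. Summed, the 10 genes came to 3318, 3679 and 6457 CPM in DTC 1, 2 and 3 and to between 7329 and 13873 CPM in the mCherry libraries, so every DTC library was below every mCherry library.

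Reporter-high and reporter-low cells, both taken at 6 weeks, were compared to ask whether the cathepsins follow the Gstt1 reporter. None of the 10 genes passed the threshold, and 0% of the 15437 genes tested passed with limma or with edgeR. Gstt1 itself was at 15.1, 11.9 and 29.4 CPM in mCherryLow 1, 5 and 6 and at 60.6, 48.4 and 50.9 CPM in mCherryHigh 1, 5 and 6. It did not pass either, as the smallest limma adjusted p of any gene was 0.444. The lack of calls therefore cannot show that the cathepsins do not follow the reporter. An unadjusted limma p under 0.05 was found for 9.38% of genes. DESeq2 called 0.298% of its 15118 genes higher and 0.575% lower, with 0 of the 10 genes among them. Of the 10 genes, 9 were higher in mCherryHigh at any size, with a median of 0.42 against 0.09 over all genes. The groups did not overlap for Ctsh and Lgmn, both higher. That is 2 of 10, where 10.2% of all genes were higher without overlap, 5.78% lower and 15.9% either way. The Ctsh difference was 0.66 (SE 0.24, interval 0.10 to 1.22, limma unadjusted p = 0.0259, adjusted p = 0.488). The Lgmn difference was 0.51 (SE 0.22, interval -0.01 to 1.02, limma adjusted p = 0.539).

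For the other genes the mCherry groups overlapped. The Ctsa difference was 0.58 (interval -0.06 to 1.22), with mCherryHigh 6 below mCherryLow 6. The Ctsk difference was 1.07 (interval -0.28 to 2.43). The Ctss difference was 1.73 (interval -1.18 to 4.64) and rested on mCherryLow 5, without which it was 0.12. Ctsl and Ctsc differed by 0.32 and 0.33. Ctsd differed by 0.07 (interval -0.80 to 0.94), Ctsb by 0.04 (-0.54 to 0.62) and Ctsz by -0.15 (-0.91 to 0.61), and the sign of each changed when 1 library was left out. Limma adjusted p lay between 0.488 and 0.981 for all 10.

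Within code series the same genes could be compared between single libraries. Between mCherryHigh 1 and mCherryLow 1, differences on the log2(CPM + 1) scale were 1.15 for Ctsa, 0.58 for Ctsh, 0.57 for Ctsc, 0.38 for Ctsl, 0.31 for Lgmn, 0.26 for Ctsk, -0.17 for Ctss, -0.32 for Ctsb, -0.87 for Ctsz and -0.94 for Ctsd. Between mCherryHigh 5 and the mean of mCherryLow 5 and 6, they were 0.55 for Ctsa, 0.95 for Ctsh, 0.42 for Ctsc, 0.40 for Ctsl, 0.73 for Lgmn, 1.90 for Ctsk, 2.05 for Ctss, 0.48 for Ctsb, 0.45 for Ctsz and 0.88 for Ctsd. Ctsa, Ctsh, Ctsc, Ctsl, Lgmn and Ctsk were thus higher in mCherryHigh in both series, while Ctsd, Ctsz, Ctsb and Ctss had opposite signs. The Poisson intervals of mCherryHigh 1 and mCherryLow 1 overlapped for Ctss (18 and 65 reads), Ctsk (14 and 37 reads) and Lgmn (161 and 412 reads). Overlap alone does not settle whether a difference exceeds counting error, and this was not tested. The Ctss value of 2.05 also includes mCherryLow 5, with its 1 read. mCherryHigh 6 had no mCherryLow library in its series.

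Other genes of the lysosome were followed through the same fits. Lists are counted by table entry, and Glb1, Slc38a9 and Ciita had 2 entries each. The lower Ciita entry did not pass the filter and was not tested. Of all genes tested, 34.2% rose and 8.87% fell in DTC against mCherryLow, and 23% rose and 7.19% fell against mCherryHigh. Among glycosidases and lipases, 16 of 32 entries fell and 0 rose in DTC against mCherryLow, with a median difference of -1.07. Gaa, the glycogen-degrading glucosidase, was at 41.5 ± 18.7 CPM (SD, n = 3) in DTC and 270.3 ± 32.6 CPM (SD, n = 3) in mCherryLow and fell by 2.75 (limma adjusted p = 0.000524). Asah1, acid ceramidase, fell by 1.95 (limma adjusted p = 0.000864) and Man2b1, a mannosidase, by 2.08 (0.000969). Against mCherryHigh, 18 of 32 fell and 0 rose, with a median of -1.42.

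Of the 18 V-ATPase subunits, 11 fell and 2 rose against mCherryLow (median -1.002), and 8 fell and 1 rose against mCherryHigh (median -1.06). Atp6v1e1 fell by 1.58 (limma adjusted p = 0.00396) and Atp6v0a2 by 2.20 (0.00969) against mCherryLow, while Atp6v0c, part of the proton-carrying ring, rose by 2.65 (0.00140) from 6.92 to 48.3 CPM. Of 24 entries for the lysosomal membrane and enzyme sorting, 10 fell and 1 rose against mCherryLow (median -0.90), and 9 fell and 1 rose against mCherryHigh (median -0.78). Lamp1, the main membrane glycoprotein, fell by 1.68 (limma adjusted p = 0.00305), while the entries of Slc38a9, an amino acid sensor of the lysosome, differed from each other. ENSMUSG00000069056 rose by 3.61 (limma adjusted p = 0.000975) from 0.772 to 22.4 CPM. ENSMUSG00000047789 was at 23.9 to 26.1 CPM in mCherryLow and 9.74 to 47.6 CPM in DTC (difference -0.19, limma adjusted p = 0.803). Among 12 other lysosomal peptidases, 2 fell and 0 rose against mCherryLow (median -0.08). Tpp1, the tripeptidyl peptidase, fell by 2.69 (limma adjusted p = 0.000403) and Ggh, the folate-trimming gamma-glutamyl hydrolase, by 1.80 (0.00213). Against mCherryHigh 4 of 12 fell, Tpp1, Dpp7, Ggh and Ctse, and 0 rose. The glycosidase, V-ATPase and membrane lists thus had medians between -1.07 and -0.90 against mCherryLow, where the 10 genes had -1.09. All genes at 100 CPM or more in mCherryLow had a median of -0.89, and 37.4% of them fell. The lists were not split by level.

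Cystatins inhibit cysteine cathepsins. Of 5 tested against mCherryLow, 2 rose and 0 fell, which is near the 34.2% of all genes that rose. Cst6 rose by 2.49 (limma adjusted p = 0.00722) from 5.66 to 36.6 CPM and Cst12 by 1.83 (0.0242) from 0.356 to 4.36 CPM. The abundant Cst3, the secreted cystatin C, was at 369 ± 31.1 CPM (SD, n = 3) in DTC, against 484 ± 40.5 CPM (SD, n = 3) in mCherryLow (DTC with mCherryLow, difference -0.39, limma adjusted p = 0.317). The CPM of Cst3 and Cstb together was 0.181, 0.174 and 0.0967 times that of the 10 genes in DTC 1, 2 and 3. In the mCherry libraries it was between 0.0749 and 0.113 times, so DTC 1 and DTC 2 lay above and DTC 3 within the mCherry range. The 10 genes include Ctsd and Ctsa, which are not cysteine peptidases, so this ratio is not one of inhibitors to their targets.

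Of 11 genes of the TFEB family and of the Rag GTPases that control it, 4 rose and 4 fell against mCherryLow, and 2 rose and 2 fell against mCherryHigh. The 4 rises are near the 34.2% of all genes that rose against mCherryLow, where 8.87% fell. Tfec, a member of that family found in macrophages, rose by 3.91 (limma adjusted p = 0.00199) from 1.34 to 38.4 CPM, and Rragd, a Rag GTPase, by 3.94 (0.00137) from 1.29 to 32.2 CPM. Flcn, folliculin, which acts on the Rag GTPases, fell by 1.48 (0.00863). Tfeb itself was at 97.0, 20.2 and 108 CPM in mCherryLow, at 40.4, 70.5 and 85.8 CPM in mCherryHigh and at 38.8, 26.3 and 32.5 CPM in DTC, which overlapped mCherryLow and lay just below mCherryHigh. Of 10 tested genes for MHC class II and its handling, the pathway in which Ctss acts, 6 rose and 0 fell against mCherryLow (median 2.02), and 5 rose and 0 fell against mCherryHigh (median 1.38). H2-Ab1, a class II chain, was at 8.78, 0.0939 and 0 CPM in mCherryLow and at 4.66, 17.3 and 6.95 CPM in mCherryHigh. In DTC it was at 310.5, 351 and 242 CPM, and it rose by 7.08 against mCherryLow (SE 0.76, limma adjusted p = 0.000386). Ctss and H2-Ab1 were both at 1 read in mCherryLow 5, but in mCherryLow 6 Ctss had 337 reads and H2-Ab1 had 0.

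**Figure D4:**
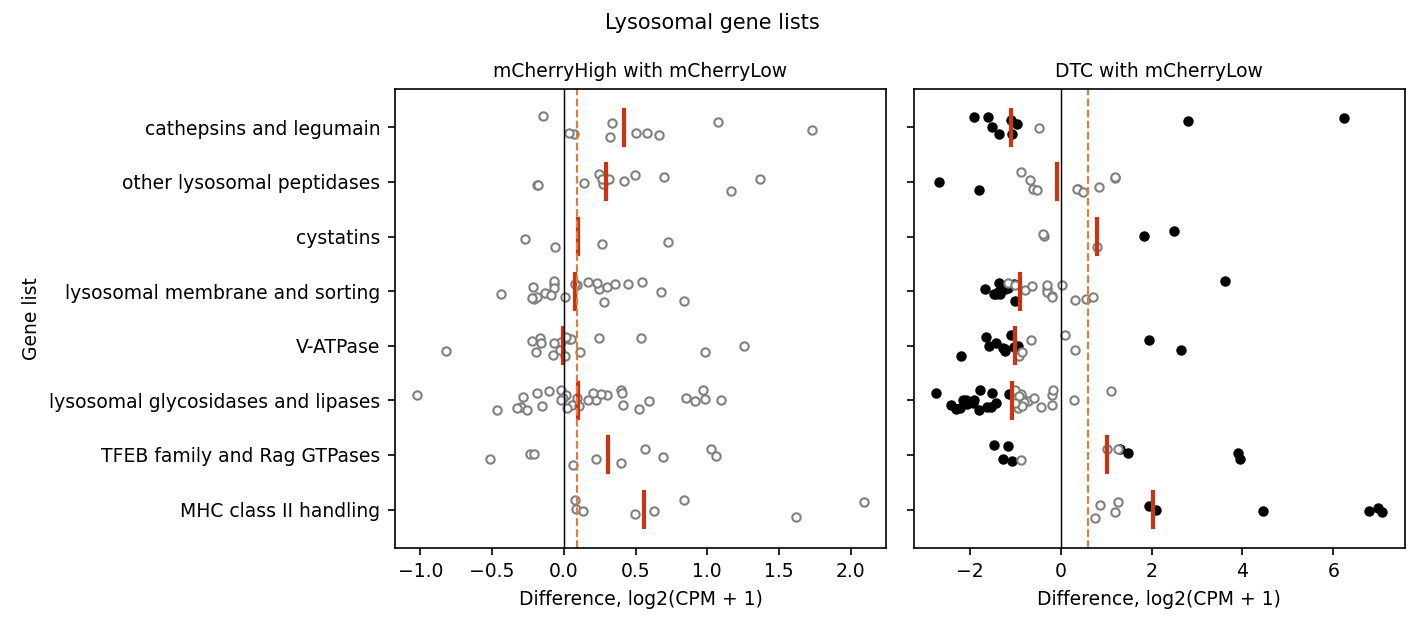
Differences in log2(CPM + 1) of genes in 8 lysosomal lists, for mCherryHigh with mCherryLow and for DTC with mCherryLow. Each point is a gene, filled where the limma adjusted p was under 0.05, red bars are list medians and the dashed line is the median of all genes tested. In the DTC panel the cathepsin list has 7 filled points left of 0 and Ctsk and Ctss to the right, and in the other panel no point is filled.

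Between the mCherry groups, no gene of these lists passed. Psap, the precursor of the saposins, averaged 2103 ± 396 CPM (SD, n = 3) in the reporter-high cells and 1118 ± 224 CPM (SD, n = 3) in the reporter-low cells (difference 0.91, limma adjusted p = 0.444), and Arsa, arylsulfatase A, differed by 0.97 (limma adjusted p = 0.449). The groups overlapped for neither gene. List medians were 0.29 for the other peptidases, 0.08 for membrane and sorting, -0.01 for V-ATPase, 0.10 for glycosidases and lipases, 0.10 for cystatins, 0.31 for the TFEB family and Rag GTPases and 0.56 for MHC class II, where the cathepsins and Lgmn had 0.42.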

How the data were processed

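Libraries were made from RNAqueous-Micro RNA by way of SMART-seq v4 full-length cDNA and Nextera XT, per the labels' protocols. Per the submitters' processing notes, the genome build was mm9. Aligner, counter and strand handling were not given in the sources used here, whereas CPM (reads of a gene over the library total, rescaled) were deposited by the authors for 24012 genes in 9 libraries. All values were whole multiples of 1 read within 0.01 read (100% of values), so whole reads and totals were recovered. A count of 0 allows up to 3 reads, 4.66 CPM in mCherryHigh 1 and 0.253 CPM in mCherryLow 6.

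A gene entered a comparison if 3 or more of its 6 libraries reached 1 CPM. The test was limma 3.58.1 in R 4.3.3 (log2(CPM + 1), empirical Bayes with trend, two-sided, group as the only term), with Benjamini-Hochberg adjustment over all genes tested and a threshold of 0.05. All 10 genes passed the filter in each comparison. Fold differences are on the log2(CPM + 1) scale unless given as ratios of means, and understate changes of low genes. The count tests edgeR 4.0.16 and DESeq2 1.42.0 ran on recovered reads as alternatives and called 7657 and 8087 of 18701 genes for DTC with mCherryLow. Intervals of single libraries are exact Poisson intervals at 95%. The fit was tested on simulated data.

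The genes described and the gene lists were chosen with earlier results of these data known. All 10 genes are named in every comparison. Of each described list, up to 4 genes with the smallest limma p are named, plus set marker genes, and 1 result is not reported here. Tfeb, Cd68, Cd74, Siglec5, Mrc1, Cst3, Gstt1 and the genes named for code series, DTC 3 or position were chosen after their values were seen. GENCODE models of a later build gave transcript lengths, overlaps and windows. Other settings were the pseudocount, the filter, scaling, 1 fit of all 9 libraries, the label number as a block, code series as a term, and leaving out each library. CPM of the total without Gm10800, Gm10801 and Lars2, which took up to 9.14% of a DTC library (Gm10800 in DTC 3), was added after the data were seen.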

Additional observations from a re-analysis of the deposited data

How the results depend on the processing

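Ctss and Ctsk stayed higher and the other 8 genes lower in DTC in both DTC comparisons under all 15 alternatives, and Ctss and Ctsl stayed past the threshold in all of them. Against mCherryLow the number of genes called was 9, and 4 with quantile normalization. Against mCherryHigh it was 7, and 4 with quantile normalization. Leaving out single libraries gave 4 to 8 genes in each DTC comparison, the lowest without DTC 1. Without DTC 3, 8 were called against mCherryLow (1 higher, 7 lower) and 8 against mCherryHigh (1 higher, 7 lower). edgeR and DESeq2 called 10 and 9 against mCherryLow and 9 and 10 against mCherryHigh. In all genes, calls for DTC with mCherryLow numbered 8064, 4300 with quantile normalization and 3628 without DTC 1. For DTC with mCherryHigh they numbered 5949, 3150 with quantile normalization and 2538 without DTC 1. The cause of these changes was not tested.

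Between the mCherry groups, 0 of the 10 genes were called under all 17 alternatives. Ctsb, at 0.04, was -0.121 with median-of-ratios scaling, -0.0435 with edgeR and -0.0393 with DESeq2, and between -0.198 (without mCherryHigh 5) and 0.256 (without mCherryHigh 1) when single libraries were left out. Ctsd, at 0.07, was -0.0878 with median-of-ratios scaling, -0.0533 without mCherryLow 5, and between -0.289 (without mCherryHigh 5) and 0.494 (without mCherryHigh 1). Ctsz, at -0.15, was between -0.450 (without mCherryHigh 5) and 0.223 (without mCherryHigh 1).

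With the label number as a replicate block, 0 of the 10 genes were called between the mCherry groups. Same-numbered libraries had correlations of deviations of -0.20, -0.02 and 0.27 over 15437 genes, so the numbers were not taken to pair the libraries. No paired analysis was possible for DTC because its labels share only 1 number with the other groups.

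Depth limits Ctss and Ctsk most in mCherryHigh 1, with 18 Ctss and 14 Ctsk reads in a library of 643748 reads. The library with 1 Ctss read, mCherryLow 5, was not shallow, at 10649995 reads.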

Other observations

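After removing group means, the 10 genes varied together unevenly over the 9 libraries. Ctsd and Ctsz had r = 0.93, Ctsb and Ctsz 0.93 and Ctsb and Ctsd 0.84, whereas Ctsl had 0.00 with Ctsd, -0.43 with Ctsk and -0.32 with Lgmn. The points share library depth and composition, and mCherryHigh 1, mCherryHigh 5 and DTC 3 are the extremes for Ctsd, so these are descriptions with no p.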
